A study of Homo sapiens with 9 samples.

Results

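The S100 genes code for small calcium-binding proteins, and 10 of them were followed here in the breast cancer line MDA-MB-231 and in derivatives of it with a preference for lung or brain. The members, S100A2, S100A3, S100A4, S100A6, S100A8, S100A9, S100A10, S100A11, S100A14 and S100A16, were chosen by their gene symbol, and they are 10 of the 58884 genes in the table of counts. Of these, 7 passed the filter on low counts, which left 13001 genes to be tested. S100A8 and S100A9 had no count in any library and S100A14 had at most 10, and these 3 genes were not tested.

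MDA-MB-231 is a human breast cancer cell line of the claudin-low type, which lacks much of the epithelial program. The parental line (Par) was compared with LM2, a sub-population with metastatic competence for the lung, and BrM2, one with competence for the brain. All 3 lines were grown under the same culture conditions with no treatment, and each was sequenced as 3 replicates taken at different passages of the line. Each line is therefore 1 derivative, and the spread between replicates is a spread between passages of that line. Totals lay between 14371858 counts in BrM2 replicate 1 and 24511786 in LM2 replicate 3. Levels are given as normalized CPM, which are counts scaled to a common library size by the library total and its TMM factor, and a mean is followed by its SD over 3 replicates. The mesenchymal markers VIM, ZEB1, FN1 and CD44 were well detected, with a summed level of the 5 markers listed of 2085 to 3862 CPM. The remaining listed one, CDH2, had 3 to 14 counts per library and was not tested. Of the epithelial markers, CDH1, the epithelial cadherin, had 3 to 37 counts per library, ESR1, the estrogen receptor, had 2 to 16 and CLDN3 had 0 to 9. The others were detected, with means in Par of 205 CPM for KRT19, 95.1 for CLDN4 and 7.15 for EPCAM.

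S100 proteins form dimers, and each subunit carries a pair of EF hands, the helix-loop-helix motif that binds calcium. Calcium opens a hydrophobic surface in most of them, through which they bind targets such as annexins or myosin inside the cell. Some are also released and act on receptors such as RAGE, and S100A4 in particular has long been studied in metastasis. Most of the family lies in a cluster on the long arm of chromosome 1. The 10 members lay between 151982915 and 153616325 on chromosome 1 of GRCh38.p14, a stretch of 1633 kb, with S100A10 and S100A11 at one end and S100A6, S100A4, S100A3 and S100A2 next to each other towards the other end.

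The sequences upstream of the 4 members with the lowest fitted values in BrM2 relative to Par, and of S100A16, the member with the smallest difference, are shown because these genes lie close together and yet their estimates differed widely. Each is the 250 bases before the start given by RefSeq, written 5′ to 3′ on the gene's strand in GRCh38.p14, with the letters of any motif that was searched for in capitals.
S100A2, chr1:153565845-153566094, minus strand: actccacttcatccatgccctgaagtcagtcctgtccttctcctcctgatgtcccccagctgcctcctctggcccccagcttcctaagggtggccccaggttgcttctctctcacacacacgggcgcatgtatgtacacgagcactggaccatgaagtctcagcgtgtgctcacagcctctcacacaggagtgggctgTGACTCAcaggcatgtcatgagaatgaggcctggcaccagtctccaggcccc
S100A3, chr1:153549259-153549508, minus strand: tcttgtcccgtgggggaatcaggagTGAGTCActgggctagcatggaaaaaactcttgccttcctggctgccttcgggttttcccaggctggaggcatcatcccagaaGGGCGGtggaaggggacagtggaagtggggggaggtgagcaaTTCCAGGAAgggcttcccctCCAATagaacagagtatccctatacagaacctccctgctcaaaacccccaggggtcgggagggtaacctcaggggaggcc
S100A4, chr1:153545807-153546056, minus strand: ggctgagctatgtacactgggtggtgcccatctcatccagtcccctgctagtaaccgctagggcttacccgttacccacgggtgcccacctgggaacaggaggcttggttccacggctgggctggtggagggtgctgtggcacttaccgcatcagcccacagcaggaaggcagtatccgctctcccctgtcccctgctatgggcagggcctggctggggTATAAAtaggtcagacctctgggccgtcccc
S100A6, chr1:153535992-153536241, minus strand: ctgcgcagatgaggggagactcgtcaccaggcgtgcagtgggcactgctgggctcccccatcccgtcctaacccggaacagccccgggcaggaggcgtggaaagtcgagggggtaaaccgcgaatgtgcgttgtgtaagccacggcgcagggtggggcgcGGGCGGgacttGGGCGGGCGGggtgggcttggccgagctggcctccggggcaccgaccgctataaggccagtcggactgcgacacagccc
S100A16, chr1:153613138-153613387, minus strand: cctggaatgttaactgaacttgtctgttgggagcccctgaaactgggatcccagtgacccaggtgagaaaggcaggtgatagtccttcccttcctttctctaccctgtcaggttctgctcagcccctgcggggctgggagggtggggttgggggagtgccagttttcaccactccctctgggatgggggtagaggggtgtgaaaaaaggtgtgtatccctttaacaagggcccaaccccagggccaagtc

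The letters TGANTCA, bound by AP-1, were found 52 bases before the start of S100A2 and 225 bases before that of S100A3. Of all 35116 RefSeq promoters of this length, 6.57% hold them on either strand. S100A4 had the letters TATAAA 31 bases before its start, and 10.7% of all promoters hold them. In S100A6 the GC box GGGCGG stood at 90, 79 and 75 bases before the start, the last 2 of these overlapping, and 42.6% of promoters hold it. S100A3 also held GGGCGG, the CCAAT box and the STAT letters TTCNNNGAA, which are found in 42.6%, 32.01% and 6.57% of promoters. None of the motifs was found in the S100A16 window shown, while the window of its other start held CCAAT and GGGCGG. The Ets letters CCGGAAG (8.52% of promoters) were found among the members in S100A9 alone and the Runt letters TGTGGT (10.98%) in S100A9, S100A11 and the window of another start of S100A2. Of the other members, S100A9 and the windows of some of the starts of S100A8 had TATAAA, and the promoters of S100A9, S100A10 and S100A11 also had GGGCGG. These are matches of letters and no binding was measured here.

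S100A6 was by far the most abundant member. Per kilobase of its canonical transcript of 434 bases it stood at 10022 CPM in Par, 5388 in LM2 and 2762 in BrM2, the ranks 2, 5 and 12 among the 12884 tested genes for which a transcript length was found. S100A4, with 513 bases, came next in Par at 1928 CPM per kilobase (rank 20), followed by S100A11 at 710 (rank 71), S100A10 at 517 (rank 96), S100A16 at 325 (rank 163), S100A2 at 241 (rank 246) and S100A3 at 53.3 (rank 1357). In BrM2 this order was different. S100A11 then stood at 394 CPM per kilobase and S100A4 at 375, and S100A2, at 13.2, was below S100A3, at 14.5. The rank of S100A2 was 377 in LM2 and 4664 in BrM2. Lengths are those of the canonical transcripts in the GENCODE v44 annotation, and the 2 pairs named for BrM2 differ by less than the spread of the replicates.

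Summed over the 10 members, the level was 6741 ± 1816 CPM in Par, 3908 ± 1722 in LM2 and 2012 ± 884 in BrM2 (SD, n = 3 each). In whole cultures, fewer cells that express a gene and less RNA per cell cannot be told apart. S100A6 made up 53.6% to 68.6% of this sum. As a share of all counts, the members took 0.538% to 0.812% of a Par library, 0.268% to 0.493% of an LM2 library and 0.144% to 0.286% of a BrM2 library. Within each replicate number the sum in BrM2 was 21.5% to 34.9% of that in Par, and the sum in LM2 was 49.7% to 67.3% of it.

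**Figure D1:**
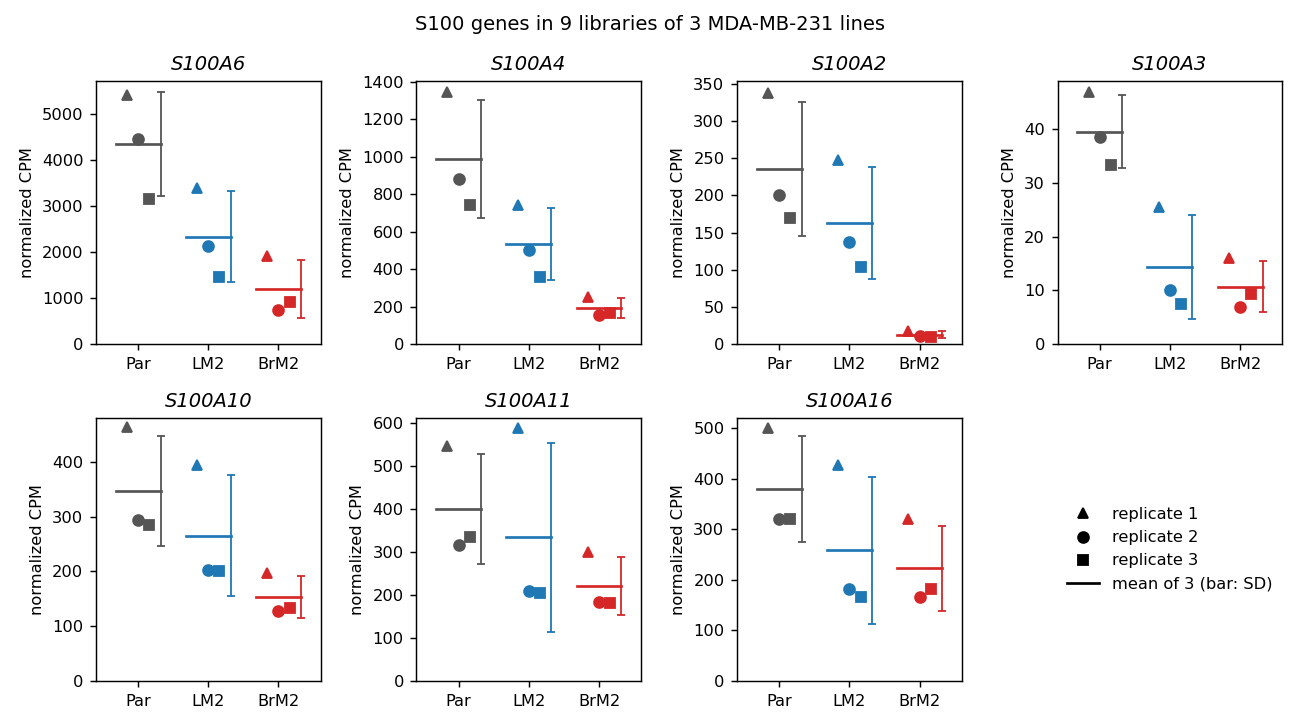
Normalized CPM (vertical axes, linear and from 0) of the 7 tested S100 genes in Par, LM2 and BrM2, with 1 point per library, the marker giving the replicate number, a line at the mean of 3 and a bar of 1 SD. BrM2 lay below Par in every replicate number of every gene, S100A2 was between 9.84 and 18.4 CPM in BrM2 against 169 to 337 in Par, and replicate 1 was the highest of its line in every panel.

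The comparison of BrM2 with Par asks which genes differ between brain metastatic cells and their parent. S100A2, S100A4, S100A3, S100A6 and S100A10 were lower in BrM2, by fitted folds from 2.27 to 18.3. That is 5 of the 7 tested members, where 6.99% of all tested genes were called lower. S100A11 and S100A16 had negative estimates too but missed the threshold. The median log2 fold change of the 7 members was -1.86, and that of all tested genes was -0.02.

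S100A2, a member found mainly in epithelial cells, had 337, 200 and 169 CPM in Par replicates 1 to 3. In LM2 it had 247, 137 and 103 CPM and in BrM2 18.4, 10.5 and 9.84 CPM. The highest BrM2 library was thus far below the lowest Par and LM2 libraries, while the libraries of Par and LM2 overlapped. The log2 fold change in BrM2 relative to Par was -4.19 (SE 0.46, adjusted p = 0.00052), an 18.3-fold lower level. Within replicate numbers the BrM2 level was 0.052 to 0.058 of that in Par, a narrow range beside the spread of the single libraries.

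S100A4, also called metastasin, binds the heavy chain of nonmuscle myosin IIA and takes its filaments apart. Its levels were 1345, 880 and 743 CPM in Par, 741, 502 and 359 CPM in LM2 and 254, 156 and 167 CPM in BrM2. The 3 lines did not overlap, and Par was highest and BrM2 lowest. The difference between BrM2 and Par was -2.36 on the log2 scale (SE 0.35, adjusted p = 0.0024), a 5.14-fold lower level.

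S100A3, a cysteine-rich member best known from the hair cuticle, was the least abundant tested member in Par. It had 46.9, 38.5 and 33.3 CPM in Par, 25.5, 10.0 and 7.52 CPM in LM2 and 16.04, 6.87 and 9.27 CPM in BrM2. Both derivatives lay below every Par library and overlapped with each other. The estimate for BrM2 relative to Par was -1.89 (SE 0.49, adjusted p = 0.035).

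S100A6, or calcyclin, binds the ubiquitin ligase adaptor CACYBP and several annexins. Par had 5418, 4466 and 3164 CPM, LM2 had 3409, 2138 and 1467 CPM and BrM2 had 1920, 751 and 925 CPM. All BrM2 libraries were below all Par libraries, and LM2 overlapped with both. The log2 fold change in BrM2 relative to Par was -1.86 (SE 0.43, adjusted p = 0.023). The exons of S100A6 overlap by 37 bases with those of a gene on the opposite strand, and the strand that was counted is not given in the sources used here.

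S100A10, or p11, does not respond to calcium and forms a complex with annexin A2 at the membrane. It had 463, 293 and 285 CPM in Par, 393, 202 and 200 CPM in LM2 and 197, 128 and 134 CPM in BrM2. The BrM2 libraries were below all of the others. The estimate for BrM2 relative to Par was -1.18 (SE 0.34) and lay at the threshold, with an adjusted p of 0.04997.

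S100A11, which binds annexin A1, had 548, 316 and 335 CPM in Par, 589, 210 and 205 CPM in LM2 and 300, 183 and 182 CPM in BrM2. BrM2 again lay below Par without overlap, although the margin was small beside the height of the first replicate in each line. Its log2 fold change was -0.85 (SE 0.45, adjusted p = 0.29), with a 95% interval from -1.86 to 0.16. With the replicate number as a block the adjusted p was 0.0020, and the gene then counted as lower. Of its transcript stretches of 50 bases, 2.0% also occur in another gene.

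S100A16, a widely expressed member of which little is known, had 501, 320 and 320 CPM in Par, 426, 181 and 167 CPM in LM2 and 320, 166 and 182 CPM in BrM2. It was the single tested member for which BrM2 and Par overlapped, and only just, since the highest BrM2 library had 319.9 CPM and the lowest Par library 319.7. The estimate was -0.77 (SE 0.42, adjusted p = 0.31), and -0.81 with the replicate block (adjusted p = 0.0010).

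In all, 6 of the 7 members lay lower in BrM2 than in Par without overlap, as did 16.1% of all tested genes. The call of S100A2 and of S100A4 in this comparison was kept when any 1 of the 9 libraries was left out. In these 9 fits the genes called in either direction also varied, from 940 without BrM2 replicate 3 to 2104 without LM2 replicate 1. The number of members called fell from 5 to 2 without Par replicate 1, Par replicate 2, BrM2 replicate 2 or BrM2 replicate 3, and to 3 without Par replicate 3 or LM2 replicate 2. It was 7 with the replicate block, where 23.2% of all tested genes were called lower, and it was 7 without replicate 1 of the 3 lines, 0 without replicate 2 and 1 without replicate 3. In these 3 fits 19.6%, 0.485% and 0.785% of all tested genes were called lower.

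The comparison of LM2 with Par asks the same of the lung metastatic cells. By edgeR, 0 of the 7 members were called without a block, where 4.48% of all tested genes were called lower. An unadjusted p under 0.05 was found for 2 members, S100A3 and S100A4, and for 2622 of the 13001 tested genes. DESeq2 called 1 member, and its count over all tested genes is given in the closing section. All 7 estimates were negative, with a median of -0.56 against 0.01 for all tested genes, of which 6324 of 13001 were negative. In 20 of the 21 pairs of libraries with the same number the level was lower in LM2. The exception was S100A11 in replicate 1, where LM2 stood at 1.08 times the Par level. The 7 members share the same libraries and their levels correlate, so these pairs are not independent and do not count as replicates.

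With the replicate number as a block, 6 members were lower in LM2, where 19% of all tested genes were called lower. S100A3 had the largest difference, -1.46 on the log2 scale (SE 0.48, adjusted p = 0.11) without the block and -1.64 with it (adjusted p = 0.00041). S100A4 was at -0.89 (SE 0.34, adjusted p = 0.17) and with the block at -0.90 (adjusted p = 0.00032). These were also the 2 members whose LM2 and Par libraries did not overlap, in the lower direction, as was found for 13.3% of all tested genes.

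S100A6, S100A2, S100A16 and S100A10 had estimates of -0.90, -0.54, -0.56 and -0.39 in LM2, with adjusted p between 0.29 and 0.63. With the block their adjusted p values were 0.0026, 0.0028, 0.0046 and 0.016. S100A11 was called in neither fit, at -0.26 without the block and -0.38 with it (adjusted p = 0.85 and 0.097). Without LM2 replicate 1, S100A3 was past the threshold in the fit without a block, at -2.17 (adjusted p = 0.011). Without replicate 1 of the 3 lines all 7 members were lower, where 17.2% of all tested genes were called lower.

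**Figure D2:**
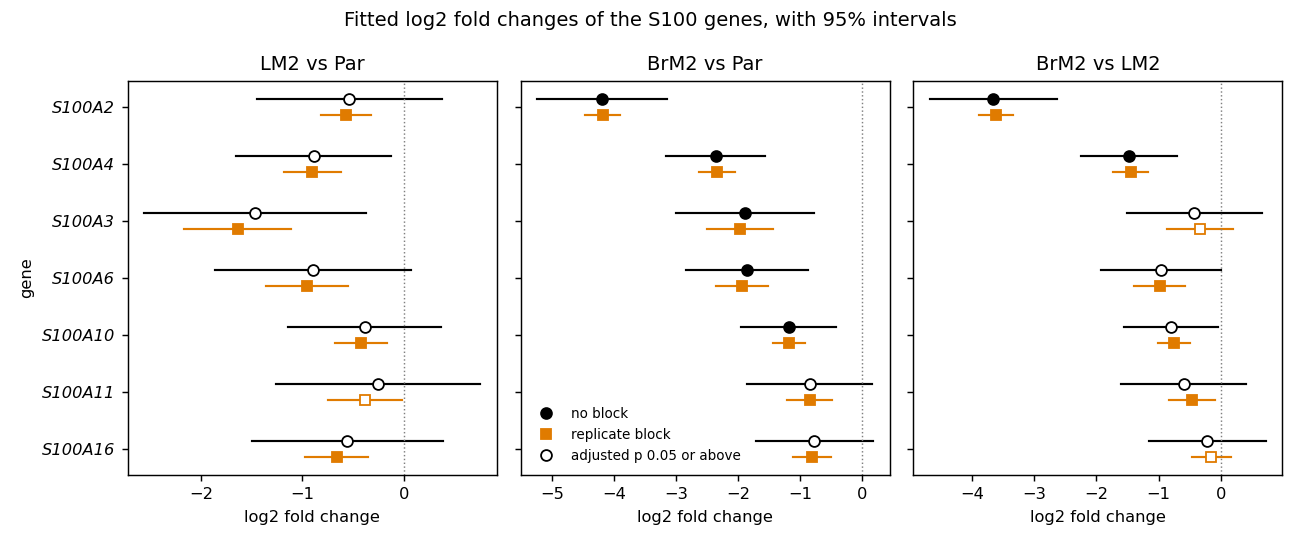
Fitted log2 fold change (horizontal axes) of the 7 tested S100 genes in the 3 comparisons, with bars for the 95% interval, circles for the fit without a block and squares for the fit with the replicate number as a block; open symbols have an adjusted p of 0.05 or above. All estimates lie below 0, S100A2 stands at -4.19 in BrM2 relative to Par and -0.54 in LM2 relative to Par, and the intervals narrow with the block while the estimates stay close.

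The comparison of BrM2 with LM2 tests directly whether the derivatives differ. S100A2 and S100A4 were lower in BrM2, 2 of 7 members, where 4% of all tested genes were called lower. S100A2 had a log2 fold change of -3.66 (SE 0.45, adjusted p = 0.0014), a 12.6-fold lower level, which was past the threshold whichever single library was left out. For S100A4 it was -1.47 (SE 0.34, adjusted p = 0.031). That call was lost without Par replicate 2, LM2 replicate 1, LM2 replicate 2, BrM2 replicate 2 or BrM2 replicate 3.

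S100A6 stood at -0.96 (SE 0.42, adjusted p = 0.24) and S100A10 at -0.80 (SE 0.33, adjusted p = 0.22) in BrM2 relative to LM2. With the block their adjusted p values were 0.0022 and 0.00066, and S100A11, at -0.59 without the block (adjusted p = 0.53), reached 0.047. S100A3 and S100A16 were called in neither fit. Their estimates without the block were -0.42, with an interval from -1.51 to 0.66, and -0.21. The interval of S100A16 reached from -1.15 to 0.72.

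With the block, 5 members were lower in BrM2 than in LM2, against 19.7% of all tested genes. The BrM2 and LM2 libraries did not overlap for S100A2, S100A4 and S100A10, in the lower direction, as for 11.7% of all tested genes. Of the 21 pairs with the same number, which share libraries and are not independent, 19 had the lower level in BrM2. The exceptions were replicate 3 of S100A3 and of S100A16. Without LM2 replicate 1 the estimates of S100A3, S100A11 and S100A16 changed sign to 0.28, 0.09 and 0.36, none past the threshold, and S100A16 was at 0.01 without replicate 1 of the 3 lines.

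Replicate 1 was the highest of its line for each of the 7 tested members in each of the 3 lines, 21 of 21 cases. Among all tested genes, 34% had replicate 1 highest in all 3 lines. The ratio of replicate 1 to the mean of the other 2 ranged over the members from 1.30 to 1.83 in Par, from 1.72 to 2.91 in LM2 and from 1.51 to 2.29 in BrM2. The median of this ratio over all tested genes was 0.995 in Par, 1.0003 in LM2 and 0.9803 in BrM2. The members also have short transcripts, 6 of the 7 being under 1000 bases, as are 7.77% of tested genes, and the part of transcript length in these ratios was not tested. Over the 9 libraries, with the mean of each replicate number taken off, the 21 pairs of members had a Pearson correlation of log2 CPM between 0.69 and 0.99, with a median of 0.90. The points share the 3 lines, and genes with the same order of Par, LM2 and BrM2 correlate for that reason alone.

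S100A8 and S100A9 together form calprotectin, which neutrophils and monocytes hold in large amounts. Neither gene had a count in any of the 9 libraries, which allows at most 3 counts, or 0.115 to 0.221 CPM depending on the library. That limit covers counting error only. Of the 7 myeloid markers, CSF3R and TYROBP were at 0 in every library, PTPRC had at most 6 counts and ITGAM at most 7. The summed level of the 7 was 25.1 to 52.4 CPM in Par, 5.42 to 11.98 in LM2 and 2.82 to 7.36 in BrM2, and most of it in Par came from FPR1, at 31.4 CPM. FPR1 had a log2 fold change of -3.94 in BrM2 relative to Par (SE 0.66, adjusted p = 0.0047) and of -2.52 in LM2 (SE 0.61, adjusted p = 0.035). The LM2 call was lost without any 1 of the Par replicates, LM2 replicate 2, LM2 replicate 3 or BrM2 replicate 2.

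S100A14, a partner of S100A16 in epithelial cells, had 2, 8 and 5 counts in Par, 2, 10 and 5 in LM2 and 1, 4 and 7 in BrM2. At this depth no difference between the lines could be seen. The summed level of the 6 epithelial markers was 250 to 365 CPM in Par, 41.0 to 83.5 in LM2 and 121 to 321 in BrM2, and 3 of the 6 were tested. CLDN4, a claudin, had means of 95.1 CPM in Par, 5.82 in LM2 and 19.9 in BrM2, and was lower than in Par in both LM2 (-4.03, SE 0.47, adjusted p = 0.0010) and BrM2 (-2.26, SE 0.44, adjusted p = 0.0093). KRT19, a keratin, was lower in LM2 (-2.18, SE 0.45, adjusted p = 0.017) and had an estimate of -0.11 in BrM2 (SE 0.43, adjusted p = 0.93). EPCAM passed the threshold in LM2 with the block only (-0.61, adjusted p = 0.022). The CLDN4 call in BrM2 was lost without BrM2 replicate 3, and the KRT19 call without Par replicate 1, Par replicate 2, LM2 replicate 2 or LM2 replicate 3. Of the mesenchymal markers, VIM was higher in LM2 (1.08, SE 0.23, adjusted p = 0.020) and BrM2 (1.05, SE 0.23, adjusted p = 0.016), and FN1, fibronectin, was lower in BrM2 (-1.61, SE 0.17, adjusted p = 0.00041). The VIM calls were lost without Par replicate 2 or Par replicate 3, and that in BrM2 also without BrM2 replicate 2. The part of these differences in the S100 values was not tested.

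Outside the 10 members, 10 further S100 genes were listed and found in the table, and S100A5 and S100A13 were the 2 of these that were tested. S100A5, which lies between S100A6 and S100A4, had 23.0, 15.3 and 13.6 CPM in Par, 13.9, 4.52 and 4.54 CPM in LM2 and 3.53, 1.496 and 1.62 CPM in BrM2. It was lower in BrM2 than in Par, by -2.98 on the log2 scale (SE 0.56, adjusted p = 0.0078), and this call was kept without any 1 library. The gene was at -1.18 in LM2 (adjusted p = 0.24, and 0.00056 with the block). In RefSeq the stretches of S100A5 and S100A4 overlap between 153543621 and 153543685, and to which of them reads there were counted is not known here. In the GENCODE v44 annotation, 0 exonic bases of S100A4 overlap with those of another gene. S100A13 had means of 10.9, 7.63 and 6.16 CPM in Par, LM2 and BrM2, and its estimates of -0.51 and -0.82 relative to Par passed the threshold with the block only (adjusted p = 0.041 and 0.0031). S100A1 had 12 to 32 counts per library, S100Z 2 to 16 and S100P 1 to 9. S100B and S100G had at most 1, and S100A7, S100A7A and S100A12 were at 0 throughout.

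**Figure D3:**
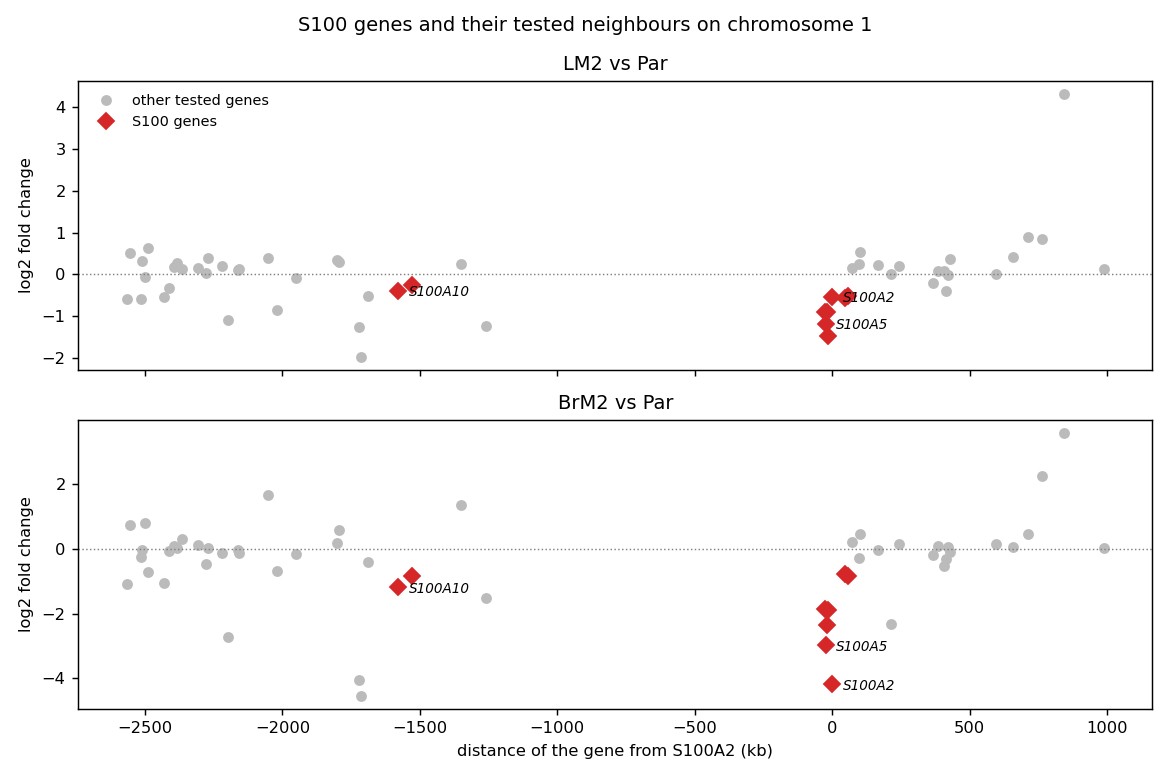
Log2 fold change (vertical axes) in LM2 and BrM2 relative to Par against the distance of each gene from S100A2 in kb (horizontal axis) for the 9 tested S100 genes (diamonds) and the 46 other tested genes within 1000 kb of the members (grey circles). The S100 genes lie below 0 in both panels, with S100A2 at -4.19 in BrM2 and -0.54 in LM2, while the grey circles fall on both sides of 0.

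The neighbours of the members on chromosome 1 did not share one direction. Of the 46 other tested genes within 1000 kb of the stretch, a set chosen after the values were seen, 5 were higher and 6 lower in BrM2 than in Par, where 6.25% of all tested genes were called higher and 6.99% lower, and their median was -0.02. In LM2, 1 was higher and 2 were lower, beside 4.17% and 4.48% of all tested genes. With the block, 10 were higher and 10 lower in BrM2, where 2538 and 3013 of the 13001 tested genes were called higher and lower. In LM2, 7 were then higher and 7 lower, where 2011 and 2476 of the tested genes were. Apart from S100 genes, 2 genes within the stretch were tested, FLG and HRNR, whose products profilaggrin and hornerin carry an S100 domain fused to a long repeat. FLG was lower in LM2 (-1.23, SE 0.30, adjusted p = 0.039) and in BrM2 (-1.51, SE 0.31, adjusted p = 0.012), whereas HRNR was higher in BrM2 (1.35, SE 0.37, adjusted p = 0.042) from a mean of 2.51 CPM in Par to 6.39. The other 5 genes of this kind, FLG2, TCHH, TCHHL1, RPTN and CRNN, were too low to be tested. The call of FLG in BrM2 was lost without Par replicate 2 or BrM2 replicate 3. The calls of FLG in LM2 and of HRNR each held without 2 of the 9 libraries, Par replicate 1 and BrM2 replicate 1 for FLG, and LM2 replicate 1 and BrM2 replicate 1 for HRNR.

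Annexins are membrane-binding proteins with which several S100 dimers pair, and the 8 that were listed here were all tested. Of the 8, ANXA4 was lower in LM2 (-0.75, SE 0.17, adjusted p = 0.029) and in BrM2 (-0.81, SE 0.17, adjusted p = 0.015). The other 7 were called in neither without the block. Of all tested genes, 4.48% were called lower in LM2 and 6.99% in BrM2, and 1 of 8 cannot be told apart from these shares. The medians of the list were 0.18 and -0.18. ANXA2, the partner of S100A10, had a mean of 2420 CPM in Par, 3195 in LM2 and 2869 in BrM2. Its estimates were 0.40 and 0.25 (adjusted p = 0.36 and 0.57). With the block, 2 annexins were higher in LM2, ANXA2 (0.39, adjusted p = 0.021) and ANXA6 (0.52, adjusted p = 0.014), ANXA3 was lower there beside ANXA4 (-0.52, adjusted p = 0.0047), and ANXA6 was higher in BrM2 (0.58, adjusted p = 0.0062). Of the 13001 tested genes, the block called 2011 higher and 2476 lower in LM2, and 2538 higher and 3013 lower in BrM2. ANXA1, the partner of S100A11, had means of 581, 802 and 485 CPM. The ANXA4 call in LM2 held without LM2 replicate 1 or BrM2 replicate 1 and was lost without any other library, and the call in BrM2 was lost without Par replicate 3, BrM2 replicate 2 or BrM2 replicate 3.

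Among 10 proteins that S100 dimers bind inside the cell, DLC1 and IQGAP1 passed the threshold. DLC1, a GTPase-activating protein that binds S100A10, had means of 129 CPM in Par, 182 in LM2 and 19.97 in BrM2. It was lower in BrM2 than in Par (-2.69, SE 0.21, adjusted p = 0.00012) and than in LM2 (-3.19, SE 0.22, adjusted p = 8.1e-05), and both calls were kept under every alternative run. IQGAP1, a scaffold at the actin cortex, was lower in BrM2 than in LM2 (-1.36, SE 0.34, adjusted p = 0.040), with means of 354 and 910 CPM. That call held without Par replicate 1 or LM2 replicate 1 and was lost without any other library. The remaining 8, among them the myosin heavy chains MYH9 and MYH10 and the giant scaffold AHNAK, were called in no comparison without the block. Without the block, 6.99% of all tested genes were called lower in BrM2 than in Par and 4% lower in BrM2 than in LM2. With the block, 3 of the 10 were higher and 2 lower in LM2 than in Par, 2 were lower in BrM2 than in Par, and 2 were higher and 3 lower in BrM2 than in LM2. Of all 13001 tested genes, 2011 were then higher and 2476 lower in LM2 than in Par, and 3013 lower in BrM2 than in Par. In BrM2 relative to LM2, 2321 were higher and 2559 lower.

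Of 5 receptors for released S100 proteins, 4 were tested and 0 were called by edgeR without a block in any comparison. In each comparison 1 of the 4 had an unadjusted p under 0.05. So did 2622 of the 13001 tested genes in LM2 relative to Par and 3247 in BrM2 relative to Par. In BrM2 relative to LM2 the number was 2716. TLR4, which senses calprotectin, had means of 25.02 CPM in Par, 67.1 in LM2 and 26.5 in BrM2, and with the block it was higher in LM2 than in Par (1.47, SE 0.15, adjusted p = 3.6e-05). With the block, 1 receptor gene was also lower in BrM2 than in Par, NPTN (-0.43, adjusted p = 0.0092). The block called 2011 of all tested genes higher in LM2 and 3013 lower in BrM2. AGER, which encodes RAGE, had 59 to 122 counts per library. Among 12 other EF-hand proteins 9 were tested. CALB2, calretinin, was lower in LM2 (-1.47, SE 0.37, adjusted p = 0.040) and CAPN2, a calpain subunit, was lower in BrM2 (-0.53, SE 0.15, adjusted p = 0.044). The call of CALB2 held without LM2 replicate 1 or BrM2 replicate 1 and was lost without any other library, and that of CAPN2 held without LM2 replicate 1 alone. With the block, 7 of the 9 were lower in BrM2 than in Par and 2 in LM2, with CALB2 in BrM2 at -1.21 (adjusted p = 5.3e-05). Of all tested genes, 23.2% and 19% were then called lower in BrM2 and LM2. Without the block these shares were 6.99% and 4.48%.

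**Figure D4:**
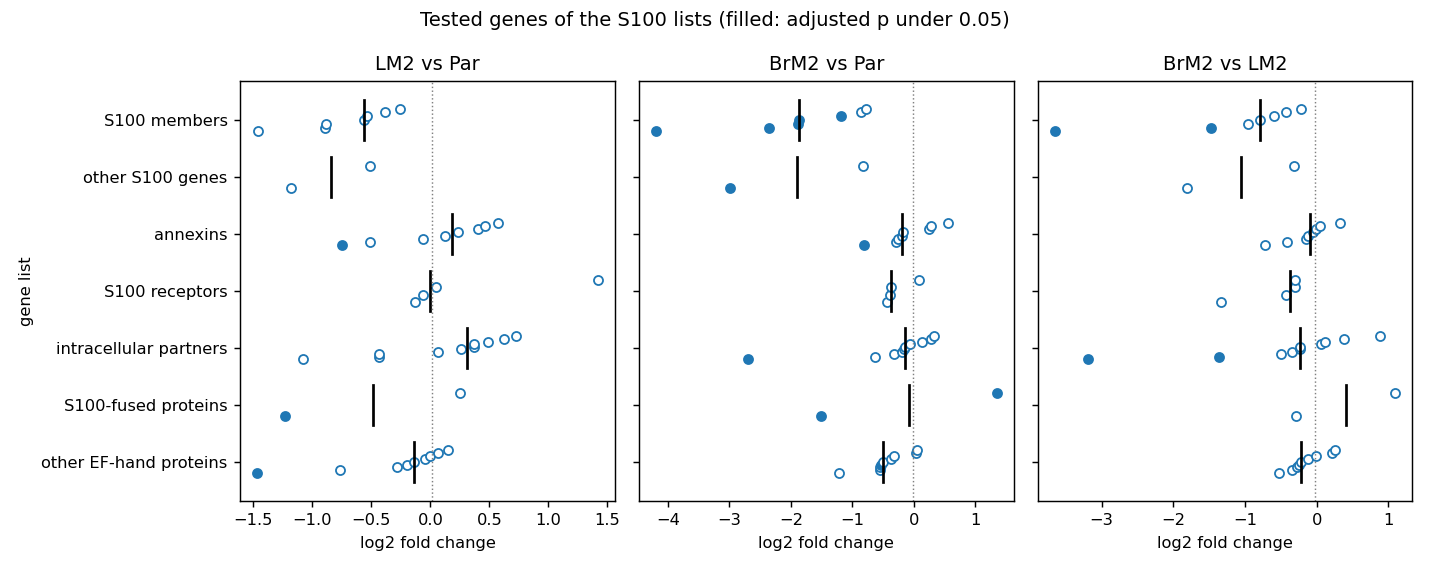
Log2 fold change (horizontal axes) of each tested gene of the S100 members and of 6 related lists in the 3 comparisons, filled where the adjusted p was under 0.05, with a black bar at the median of the list and a dotted line at the median of all tested genes. The members have medians of -0.56, -1.86 and -0.80, and the annexins 0.18, -0.18 and -0.09.

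The genes whose levels most resembled those of the 3 most variable members were found by the Pearson correlation of log2 CPM over the 9 libraries, with the mean of each replicate number taken off. For S100A2 these were SORCS2, GNG2 and GRIK4, with r of 0.998, 0.998 and 0.997, and SORCS2 had means of 54.4, 33.8 and 0.856 CPM in Par, LM2 and BrM2. For S100A4 they were SNHG18, SERPINA1 and OLFML2A, with r of 0.999, 0.996 and 0.996, and OLFML2A had means of 96.6, 43.99 and 10.8 CPM. The genes nearest to S100A3 were GUSB, CPSF4 and CD99, with r of 0.998, 0.996 and 0.992. Their levels fell less far, with GUSB at means of 129, 91.2 and 81.2 CPM. With 3 lines and 9 libraries such correlations are reached by any gene with the same order and spacing of the lines.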

How the data were processed

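RNA was measured in 9 libraries, 3 each of Par, LM2 and BrM2. The authors made stranded, paired-end mRNA libraries, mapped them to hg38 with STAR 2.7.0, which also counted reads per gene, and deposited these raw counts. They also deposited a table of their own DESeq2 comparisons (fold changes and p-values), which was not used.

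Of 58887 rows, 3 repeated an identifier under another symbol with equal counts and were used once. A filter written after HTSFilter (100 thresholds from 1 to 200, loess span 0.3) took the threshold of 49.24 normalized counts. The 13001 genes kept held 99.64% to 99.77% of each library. Differences were tested with edgeR 4.0.16 (TMM, 2-sided quasi-likelihood test, lines as groups, all 9 libraries) with Benjamini-Hochberg adjustment over all tested genes and a threshold of 0.05. The test was tried on simulated data without a shift between replicate numbers. That trial does not show how the test behaves on the spread of these libraries. Log2 CPM used a prior count of 2. DESeq2 1.42.0, limma 3.58.1, R 4.3.3, Python 3.11.15, pandas 2.3.3, numpy 2.4.6 and matplotlib 3.10.9 were also used.

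The replicate numbers were checked for pairing: deviations from the line means correlated between libraries of the same number at 0.23 to 0.90 in all 9 pairs, so the numbers were taken as pairing the libraries, and a fit with the number as a block is given where it changes the call of a member, and by counts for the related lists. The common dispersion was 0.11 without the block and 0.021 with it.

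The members, the related lists and the motifs were chosen with earlier results of these data known. Named are the 10 members, list genes past the threshold, and the 3 genes most like each of the 3 members with the largest range. Any other gene named was chosen after its values were seen, as were the list genes and markers named without a call. Promoter sequences and positions came from RefSeq (GRCh38.p14), where all 10 members matched by symbol, and transcript lengths from GENCODE v44, found for 99.1% of tested genes. Protein sequences were not used here, and the values of some list genes are not reported here. Alternatives were the block, RLE factors, other filters, DESeq2, and leaving out libraries.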

Additional observations from a re-analysis of the deposited data

Results flagged for a closer look

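Among the members, the related lists and the markers, 7 genes had an effect that differed between the derivatives. This was the edgeR quasi-likelihood test of BrM2 against LM2, which is the difference of their contrasts with Par. They were 2 of 7 tested members, 2 of 10 intracellular partners, 2 of 3 tested epithelial markers and 1 of 4 tested mesenchymal markers. The other lists and the myeloid markers had 0 calls. Of all 13001 tested genes, 531 were called higher and 520 lower in BrM2 than in LM2. S100A2 had a log2 fold change of -3.66 in BrM2 relative to LM2, and its contrasts with Par were -4.19 in BrM2 and -0.54 in LM2. S100A4 had -1.47, from -2.36 and -0.89. DLC1, the GTPase-activating protein, had -3.19, and here the contrasts with Par had opposite signs, -2.69 in BrM2 and 0.49 in LM2, the latter not past the threshold (adjusted p = 0.20, and 0.0061 with the replicate block). IQGAP1, the cortical scaffold, had -1.36, from -0.64 and 0.73, neither of them past the threshold (adjusted p = 0.29 and 0.27, and 0.00081 and 0.00075 with the block). Of the markers, KRT19 had 2.07 (adjusted p = 0.023), from -0.11 in BrM2 and -2.18 in LM2. CLDN4 had 1.77 (adjusted p = 0.039), from -2.26 and -4.03. FN1 had -1.96 (adjusted p = 0.00027), from -1.61 and 0.35, the latter not past the threshold (adjusted p = 0.28, and 0.047 with the block). The call of KRT19 between the derivatives held in 5 of 9 fits without 1 library, that of CLDN4 in 2 and that of FN1 in 9.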

How the results depend on the processing

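Of 399 values of the 7 members under 19 alternatives, 392 kept their sign. The 7 that turned were S100A11 in LM2 relative to Par without Par replicate 1 (0.0399) or LM2 replicate 3 (6.6e-05), S100A3 (0.28), S100A11 (0.0942) and S100A16 (0.36) in BrM2 relative to LM2 without LM2 replicate 1, and S100A16 in that comparison without replicate 1 of all lines (0.014), and with the block besides (0.0139). None was past the threshold. Of 418 values of called list genes and markers all kept their sign and 121 lost the call.

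With the replicate block, the members called went from 0 to 6 in LM2 relative to Par, from 5 to 7 in BrM2 relative to Par and from 2 to 5 in BrM2 relative to LM2, and the genes called from 1125 to 4487, from 1721 to 5551 and from 1051 to 4880. The block turned no direction among the members. DESeq2 with the block called 4589, 5565 and 4923 genes, and 6 members in LM2 relative to Par and 5 in BrM2 relative to LM2. DESeq2 without it called 1885 genes in LM2 relative to Par, 1812 in BrM2 relative to LM2, and 1 member in the former, as did the fit with no filter. The block without replicate 1 gave 3634, 4795 and 3715 genes, with 7 members in LM2 relative to Par and 4 in BrM2 relative to LM2. The cause was not tested.

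Without 1 library, the estimate ran from -0.94 to 0.0399 for S100A11 in LM2 relative to Par, and in BrM2 relative to LM2 from -0.83 to 0.28 for S100A3, from -0.87 to 0.0942 for S100A11 and from -0.57 to 0.36 for S100A16. Leaving out 1 library gave 585 to 1252, 940 to 2104 and 540 to 1207 genes, with 0 to 1, 2 to 5 and 1 to 2 members. Leaving out a replicate number of all lines gave 70 to 4301, 158 to 5249 and 53 to 4240 genes, with 0 to 7, 0 to 7 and 0 to 4 members, the lowest gene counts without replicate 2 and the highest without replicate 1. In BrM2 relative to Par, S100A10 lost its call with RLE factors and with filterByExpr, and its call held in 2 of 9 fits without 1 library, that of S100A3 in 3 and that of S100A6 in 5. RLE factors and no scaling left the summed level of each line within 1 SD. With 3 replicates per line, single calls near the threshold are not firm.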
